A study of Mus musculus with 8 samples.

Results

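The 38 genes described here encode the machinery of glycolysis and its best known regulator, the response to low oxygen. They comprise 21 enzymes and transporters that carry glucose into the cell, split it and export lactate, 3 enzymes that switch the flux through the pathway, the 2 alpha subunits of the hypoxia-inducible factor (HIF) and 12 genes that HIF is known to induce. They were listed by gene symbol. All 38 symbols were found among the 37310 genes of the deposited count table, and all 38 passed the filter on low counts that left 14537 genes for testing.

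Glycolysis splits glucose into pyruvate in the cytoplasm, and lactate dehydrogenase and the lactate transporters let it run when pyruvate does not enter the mitochondria. HIF is a pair of an alpha and a beta subunit. With oxygen, prolyl hydroxylases mark the alpha subunit for destruction, so the amount of HIF protein is set largely after transcription, and the RNA level of an alpha subunit is not a measure of HIF activity. In macrophages, HIF-1 alpha is known for driving glycolytic genes during activation, while alveolar macrophages, which live in the oxygen-rich air spaces, are known for a low use of glycolysis.

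RNA was sequenced from alveolar macrophages of wild-type mice in 4 groups of 2 libraries. TexAM were C57BL/6 (CD45.2+) cells that had been expanded in culture, transplanted into C57Bl/6-Ly5.1 (CD45.1+) mice and recovered from the lung after 4 months. ExAM were expanded cells of C57BL/6 mice after 2 months of culture and were not sorted. TAM were transplanted C57BL/6 alveolar macrophages, not labelled as expanded, that were also recovered after 4 months, and HostAM were the CD45.1+ alveolar macrophages of C57Bl/6-Ly5.1 mice. The 3 lung groups were sorted as live SiglecF+ CD11c+ cells by their CD45 allele. Donor and recipient mice were 8 weeks old, and each library came from a pool of 3 mice or cultures. Whether the HostAM mice had received cells or only buffer is not stated. Culture, the missing sort and the absence of a lung therefore separate exAM from the other groups together. From texAM and tAM, exAM also differed in not being transplanted and in time, 2 months of culture against 4 months in a recipient. None of these can be told apart. HostAM also differed from exAM, texAM and tAM in strain, and from texAM and tAM in not being transplanted cells. In comparisons with HostAM these differences cannot be told apart either. P-values measure the spread between the 2 pools of a group.

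Library totals ran from 6546272 counts (exAM replicate 1) to 9154128 counts (texAM replicate 1). Levels are CPM, counts scaled to a common size after TMM adjustment of the library totals, given for replicate 1 and then replicate 2 of a group. All 20 listed markers of alveolar macrophages were detected in every group. In exAM against tAM, however, 11 were called higher and 4 lower, against 21.5% and 23.2% of all tested genes. The largest difference was in Krt79, a keratin gene, at 150 and 188 CPM in texAM, 2.23 and 1.24 CPM in exAM, 192 and 206 CPM in tAM, and 198 and 175 CPM in HostAM. Mrc1, the mannose receptor and the most abundant of the list, was at 913 to 969 CPM in texAM, 1190 to 1397 CPM in exAM, 998 to 1031 CPM in tAM and 936 to 971 CPM in HostAM. Its counts, however, were 8143 and 7706 in exAM against 8596 and 8223 in tAM. Cd68 had 2267 and 2285 counts in exAM against 2261 and 2243 in tAM, but 389 and 353 CPM against 262 and 281 CPM. At like counts, the higher CPM in exAM come from scaling to its smaller library totals. The part of this in the 11 higher calls was not tested. Itgax, which encodes CD11c, was at 617 to 658 CPM in texAM, 646 to 824 CPM in exAM, 678 to 734 CPM in tAM and 630 to 685 CPM in HostAM. Siglecf was at 279 to 321, 144 to 228, 332 to 344 and 293 to 306 CPM in the same order. Marco was at 196 to 211, 471 to 520, 217 to 245 and 210 to 245 CPM, Pparg at 162 to 200, 235 to 242, 199 to 203 and 193 to 227 CPM, and the leukocyte gene Ptprc at 718 to 753, 465 to 501, 717 to 783 and 661 to 794 CPM. Markers of other cells differed between the unsorted exAM and the sorted lung groups. The 16 lung epithelial markers summed to 562 to 722 CPM in texAM, 389 to 437 CPM in exAM, 566 to 608 CPM in tAM and 805 to 885 CPM in HostAM. Cdh1, which alveolar macrophages also express, made up 422 and 375 CPM of the exAM sums, and 9 of the 16, Sftpc, Sftpa1 and Krt8 among them, were at 0 in both exAM libraries. The 14 lymphocyte markers in the table summed to 459 to 508, 372 to 417, 294 to 370 and 246 to 333 CPM in texAM, exAM, tAM and HostAM. Il7r took 382 and 306 CPM of the exAM sums, where Cd3e and Ms4a1 were at 0, while Cd2 took 195 to 230 CPM of the sums in each lung library. The 9 red cell and platelet markers summed to 61.4 to 87.2, 0.154 to 2.06, 53.0 to 57.7 and 107 to 160 CPM. Hbb-bt, a hemoglobin gene, was above Alas2 in texAM (30.7 and 29.9 CPM against 25.5 and 9.47 CPM) and in tAM (20.5 ± 3.48 CPM against 10.6 ± 0.615 CPM, mean and SD, n = 2), and Alas2 was the higher in HostAM (81.0 and 41.2 CPM against 50.3 and 37.4 CPM). The 11 neutrophil and eosinophil markers summed to 128 to 240, 46.6 to 65.9, 106 to 108 and 140 to 157 CPM, with Ly6g and Mpo at 0 in every library. Csf3r took most of the sums in tAM and HostAM, but was at 0.343 and 1.85 CPM in exAM, where S100a8 made up nearly all of the sum, at 63.6 and 44.8 CPM against 17.9 and 16.9 CPM in tAM. In bulk RNA, fewer cells of a type and less RNA per cell cannot be told apart. The part of these cells in the results below was not tested.

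Culture-expanded cells carried the highest level of most of the genes. The exAM mean was the highest of the 4 groups for 31 of the 38 genes (81.6%), against 38.4% of all tested genes. Against tAM, 26 genes rose and 4 fell in exAM at an edgeR adjusted p under 0.05. Over all tested genes, 44.7% were called, 21.5% higher and 23.2% lower, so the calls of these genes lay on the higher side where those of all genes were split. The median log2 fold change was 0.98 over the 38 genes and -0.09 over all tested genes. Against HostAM, 26 genes again rose and 4 fell, where 44.1% of all tested genes were called, 20.9% higher and 23.3% lower. Both comparisons share the exAM libraries.

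The medians of the enzymes and of the HIF targets lay close together against tAM and further apart against HostAM. Of the 21 enzymes and transporters, 15 rose and 3 fell against tAM, with a median log2 fold change of 1.08. Of the 12 HIF targets, 8 rose and 0 fell, with a median of 1.05. Against HostAM the medians were 0.88 for the enzymes, of which 14 rose and 3 fell, and 1.80 for the targets, of which 9 rose and 0 fell. The range was wider among the targets, whose log2 fold changes against tAM ran from -0.35 to 5.99 leaving aside Adm, which had 0 counts in tAM, than among the enzymes (-2.50 to 3.02). The difference between the blocks was not tested.

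**Figure D1:**
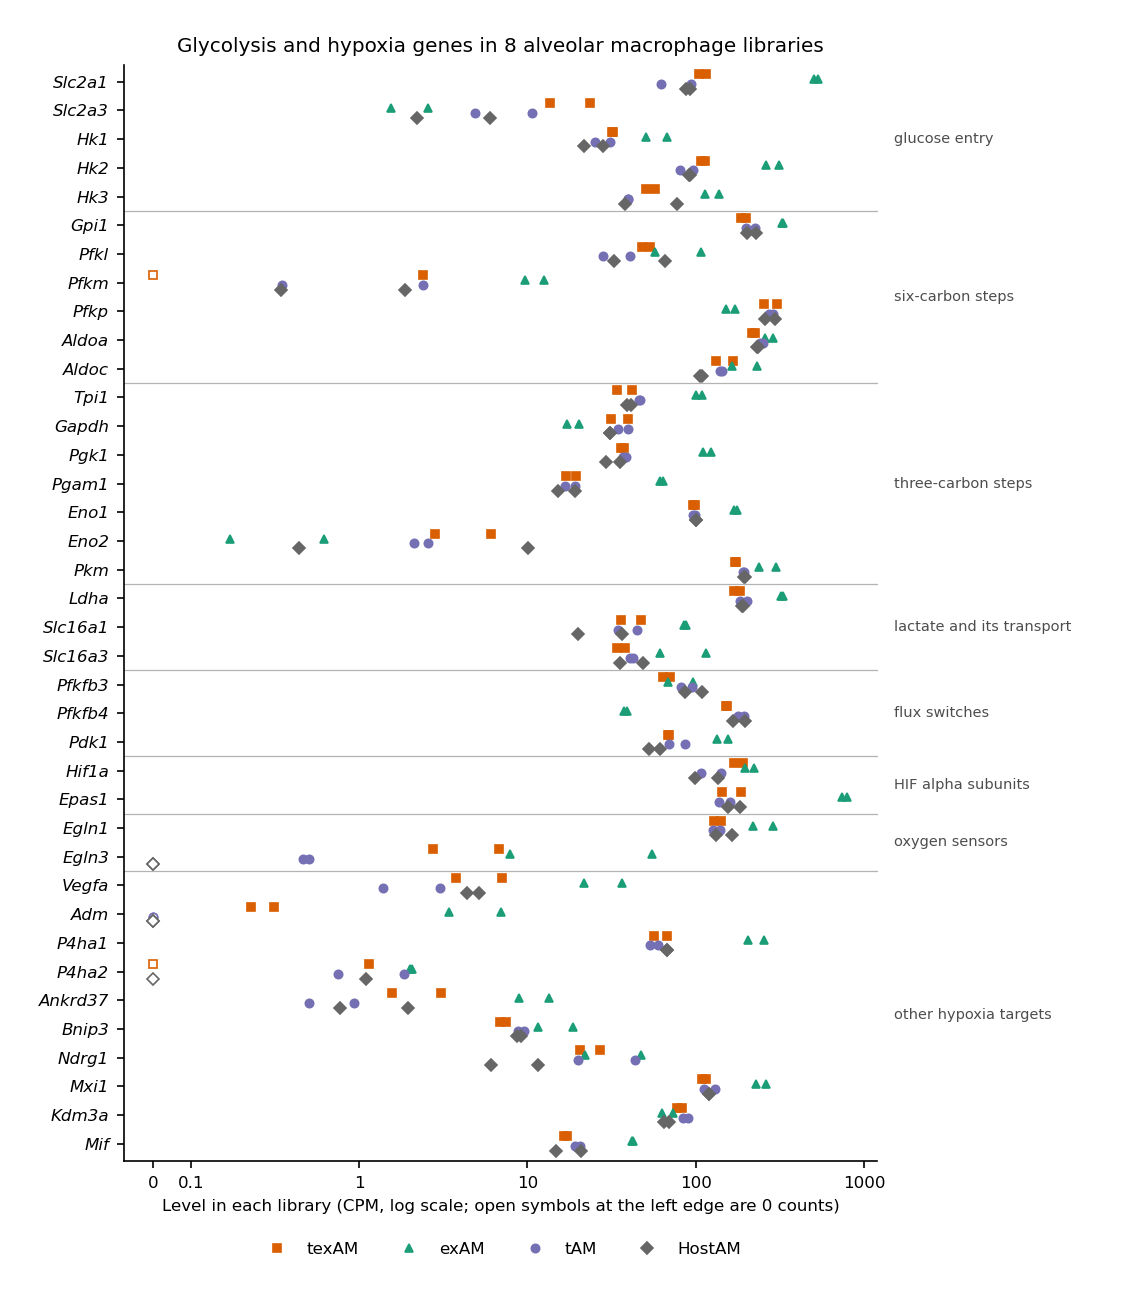
Level of each of the 38 genes in the 8 libraries, in CPM on a log axis, with genes ordered by role and 1 symbol for each library. Open symbols at the left edge are libraries with 0 counts. The exAM triangles lie to the right of the other groups for most genes, and to their left for Pfkfb4, Pfkp, Gapdh and Slc2a3, where the HostAM symbols of Slc2a3 overlap them.

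At glucose entry, the broadly expressed glucose transporter Slc2a1 (GLUT1, chr4:119108711-119137983) showed the largest called rise among the enzymes and transporters. It was at 115 and 104 CPM in texAM, 535 and 503 CPM in exAM, 61.9 and 93.5 CPM in tAM, and 87.8 and 92.3 CPM in HostAM. The exAM libraries stood apart, and every lung library lay far below them. The level in exAM was 6.68-fold that in tAM (log2 2.74 ± 0.17 SE, edgeR adjusted p = 1.32e-06) and 5.76-fold that in HostAM (adjusted p = 2.23e-06). In texAM it was at 0.211 of the exAM level (log2 -2.25, adjusted p = 4.43e-06).

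Slc2a3 (GLUT3), a high-affinity glucose transporter, went the other way. It was at 23.4 and 13.6 CPM in texAM, 2.57 and 1.54 CPM in exAM, 10.7 and 4.89 CPM in tAM, and 2.20 and 5.99 CPM in HostAM. TexAM was highest, and exAM and HostAM overlapped. Slc2a3 fell in exAM against tAM (log2 -1.92 ± 0.64 SE, edgeR adjusted p = 0.0317), but not past the threshold without exAM replicate 1 (adjusted p = 0.0728), exAM replicate 2 (adjusted p = 0.176) or tAM replicate 1 (adjusted p = 0.209). It was higher in texAM than in exAM (log2 3.17 ± 0.64 SE, adjusted p = 0.00278). Per kb of transcript, Slc2a1 made up 85.6 and 90.3% of the summed level of both transporters in texAM, 99.6 and 99.8% in exAM, 87.6 and 95.9% in tAM, and 98.0 and 94.9% in HostAM.

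The hexokinases, which trap glucose in the cell by phosphorylation, rose together. Hk2, which can bind mitochondria, as Hk1 does, and is known as inducible, was at 108 and 113 CPM in texAM, 260 and 314 CPM in exAM, 80.6 and 96.7 CPM in tAM, and 90.9 and 91.9 CPM in HostAM. ExAM did not overlap with any lung group, and its level was 3.24-fold that of tAM (log2 1.70 ± 0.13 SE, edgeR adjusted p = 6.33e-06). Hk1 rose by a log2 fold change of 1.08 against tAM (adjusted p = 0.0036) and Hk3, the hexokinase of myeloid cells, by 1.66 (adjusted p = 0.000845). All 3 also rose against HostAM and fell in texAM against exAM, the fall of Hk1 not past the threshold without texAM replicate 1 (adjusted p = 0.0558), texAM replicate 2 (adjusted p = 0.0542) or exAM replicate 1 (adjusted p = 0.0944). The mix of isoforms moved little. Per kb, Hk2 held 44.8 and 43.9% of the summed hexokinase level in texAM, 44.1 and 54.1% in exAM, 43.7 and 46.4% in tAM, and 34.5 and 48.9% in HostAM, so the exAM and lung libraries overlapped.

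In the steps that rearrange and split the six-carbon sugars, 6 genes were measured, of which 3 rose and 1 fell in exAM against tAM. Gpi1, glucose-6-phosphate isomerase, was at 186 and 198 CPM in texAM, 329 and 324 CPM in exAM, 199 and 223 CPM in tAM, and 229 and 202 CPM in HostAM. That rise was by a log2 fold change of 0.63 ± 0.10 SE against tAM (edgeR adjusted p = 0.000695). Before scaling, the counts of Gpi1 differed less, at 1919 and 2100 in exAM against 1718 and 1780 in tAM. The aldolase Aldoc rose by 0.48 (adjusted p = 0.0375) against tAM. That call was lost without exAM replicate 2 (log2 0.22, adjusted p = 0.317), without either tAM library (adjusted p = 0.132 and 0.117) and with library totals alone as the scale (log2 0.28, adjusted p = 0.201). Aldoa, the main aldolase of most tissues, was at 217 and 225 CPM in texAM, 286 and 258 CPM in exAM, 239 and 250 CPM in tAM, and 233 and 230 CPM in HostAM, and its difference against tAM did not pass (log2 0.15, adjusted p = 0.198).

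Phosphofructokinase, which commits sugar to glycolysis, changed its make-up. Pfkp, the platelet isoform and the most abundant of the 3 per kb in every library, was at 254 and 305 CPM in texAM, 151 and 172 CPM in exAM, 270 and 286 CPM in tAM, and 259 and 297 CPM in HostAM. It fell in exAM against tAM (log2 -0.78 ± 0.12 SE, edgeR adjusted p = 0.000493) and was higher in texAM than in exAM (log2 0.79, adjusted p = 0.000479). Pfkl, the liver isoform, was at 53.7 and 47.8 CPM in texAM, 56.9 and 108 CPM in exAM, 40.6 and 28.1 CPM in tAM, and 65.6 and 32.6 CPM in HostAM. The pair of exAM libraries differed, and HostAM overlapped with them. Pfkl rose against tAM (log2 1.26, adjusted p = 0.0165) but not past the threshold without exAM replicate 2, where its log2 fold change was 0.74 (adjusted p = 0.17), nor without tAM replicate 2 (adjusted p = 0.11).

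Pfkm, the muscle isoform, was scarce, with 0 and 21 counts in texAM, 73 and 63 counts in exAM, 3 and 19 counts in tAM, and 17 and 3 counts in HostAM. It was higher in both exAM libraries than in every lung library, but did not pass the threshold (log2 3.02 ± 1.28 SE against tAM, edgeR adjusted p = 0.0783). Per kb, Pfkp held 81.0 and 84.4% of the summed phosphofructokinase level in texAM, 65.0 and 56.2% in exAM, 85.6 and 89.2% in tAM, and 77.4 and 89.0% in HostAM. The exAM share was below that of every lung library.

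**Figure D2:**
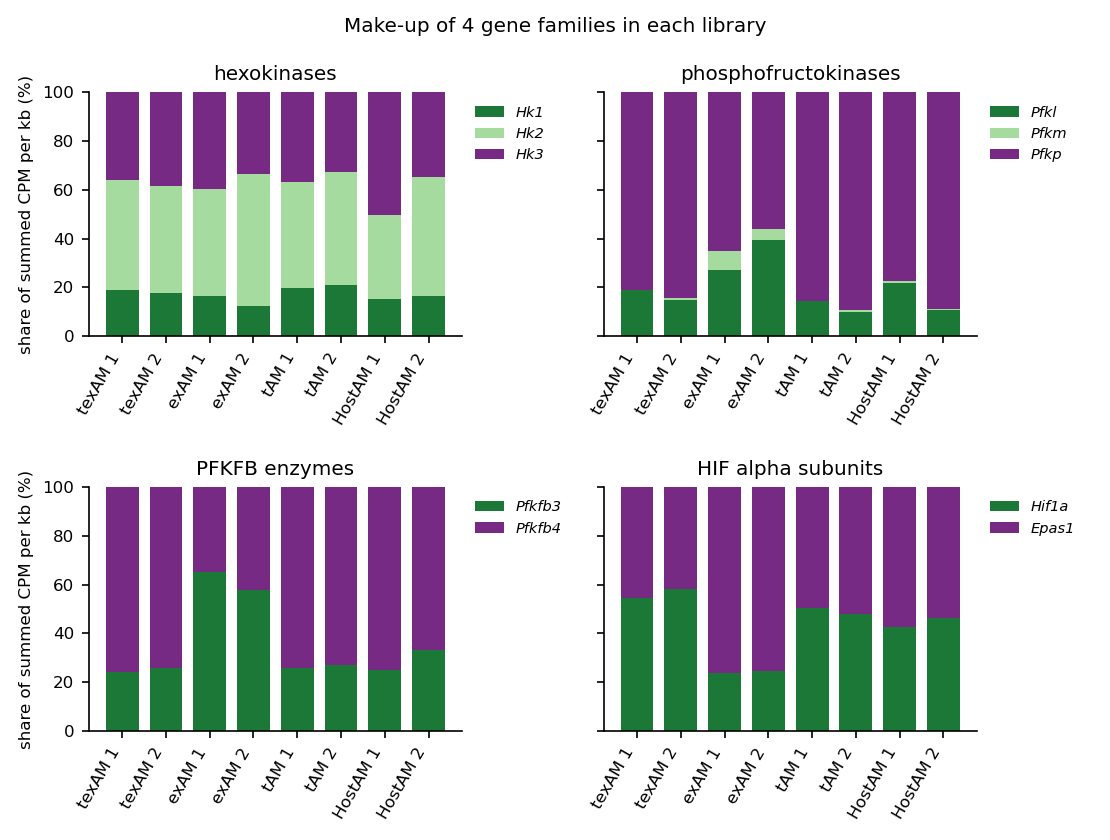
Make-up of 4 gene families in each library, as each gene's percentage of the family's summed level in CPM per kb of transcript, with the texAM libraries at the left and HostAM at the right. The hexokinase bars are alike, Pfkp, Pfkfb4 and Hif1a hold a smaller share in the exAM bars, and Epas1 a larger one (75.5 to 76.4%).

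In the steps on three-carbon sugars, 5 of 7 genes rose in exAM against tAM and 1 fell. Pgam1, a phosphoglycerate mutase, was at 19.5 and 17.0 CPM in texAM, 64.0 and 61.6 CPM in exAM, 19.2 and 16.7 CPM in tAM, and 19.1 and 15.2 CPM in HostAM. The 6 lung libraries lay within a narrow band, and the level in exAM was 3.50-fold that in tAM (log2 1.81 ± 0.23 SE, edgeR adjusted p = 0.000126). Pgk1, phosphoglycerate kinase and the first step that returns ATP, was at 35.8 and 37.4 CPM in texAM, 124 and 111 CPM in exAM, 37.1 and 38.4 CPM in tAM, and 35.5 and 29.5 CPM in HostAM. It rose 3.11-fold against tAM (adjusted p = 3.08e-05). Tpi1, triosephosphate isomerase, rose 2.25-fold (adjusted p = 0.000257). The rises of enolase Eno1 (1.77-fold, adjusted p = 0.000223) and pyruvate kinase Pkm (1.40-fold, adjusted p = 0.00677) were smaller, and that of Pkm did not pass with library totals alone as the scale (adjusted p = 0.0601). Eno2, the neuronal enolase, had 27 and 53 counts in texAM, 1 and 4 counts in exAM, 22 and 17 counts in tAM, and 4 and 87 counts in HostAM. It did not pass against tAM (log2 -2.50 ± 1.31 SE, adjusted p = 0.145). It was called lower against HostAM (adjusted p = 0.0423), but that rests on HostAM replicate 2, without which the log2 fold change was -0.12 (adjusted p = 0.959). It was not called without exAM replicate 1 (adjusted p = 0.199) or exAM replicate 2 (adjusted p = 0.104) either.

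Gapdh, which oxidises glyceraldehyde-3-phosphate and is often used as a stable control gene, was the called exception among these steps. It had 302 and 346 counts in texAM, 100 and 131 counts in exAM, 340 and 274 counts in tAM, and 279 and 269 counts in HostAM. The exAM libraries were the lowest, at 17.2 and 20.2 CPM against 39.5 and 34.4 CPM in tAM (log2 -0.98 ± 0.22 SE, edgeR adjusted p = 0.0052). Per kb of its principal transcript, Gapdh averaged 13.2 CPM in exAM, where the neighbouring enzymes Tpi1 and Pgk1 averaged 64.9 and 64.3 CPM per kb. In tAM, Gapdh averaged 26.0 CPM per kb against 28.8 for Tpi1 and 20.7 for Pgk1.

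A pair of measured properties of the table bear on the level of Gapdh and other abundant enzymes. First, their transcripts share sequence with transcripts of other annotated genes, pseudogenes among them. Of all stretches of 31 bases in the principal transcript, 84.1% for Gapdh were also found in other annotated transcripts, in 318 pseudogenes among others. The share was 87.4% for Mif, 77.2% for Eno1, 74.8% for Bnip3, 68.3% for Pgk1, 50.9% for Pkm, 42.1% for Pgam1, 37.3% for Gpi1, 35.1% for Ldha and 35.0% for Aldoa. The shared stretches of Gpi1 were found in 7 pseudogenes and in 775 other genes. How reads that match several places were counted is not given in the sources used here, so the levels of these genes are uncertain. Second, counts levelled off. No gene of the 32620 with an annotated length exceeded 2 counts per base, the highest being 1.94 in any library. Among the 226 genes over 1 count per base, the median log2 ratio of replicate 2 to replicate 1 stayed between -0.03 and -0.01 in the 4 groups, while that of the library totals ran from -0.13 to 0.12.

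The enzymes and transporters were therefore also described by their mean counts per unshared 31-base stretch. Of the 13 at or under 0.5, 10 rose and 1 fell in exAM against tAM, with a median log2 fold change of 1.17. Of the 8 over 0.5, which are Gpi1, Pfkp, Aldoa, Gapdh, Pgk1, Eno1, Pkm and Ldha, 5 rose and 2 fell, with a median of 0.56. This measure divides all counts of a gene by its unshared stretches alone. Gapdh, Pgk1 and Eno1 were over 0.5 by it, but at 0.18, 0.23 and 0.45 counts per base of the principal transcript. The enzymes at or under 0.5 by this measure thus showed the larger median change. Where counts level off, the smaller library totals of exAM also raise its CPM. Pkm had 3276 counts over both exAM libraries against 3179 over both tAM libraries, and Gpi1 4019 against 3498, but Pgk1 1440 against 626. The part of shared sequence and of the levelling in the rises and in the smaller median change was not tested.

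**Figure D3:**
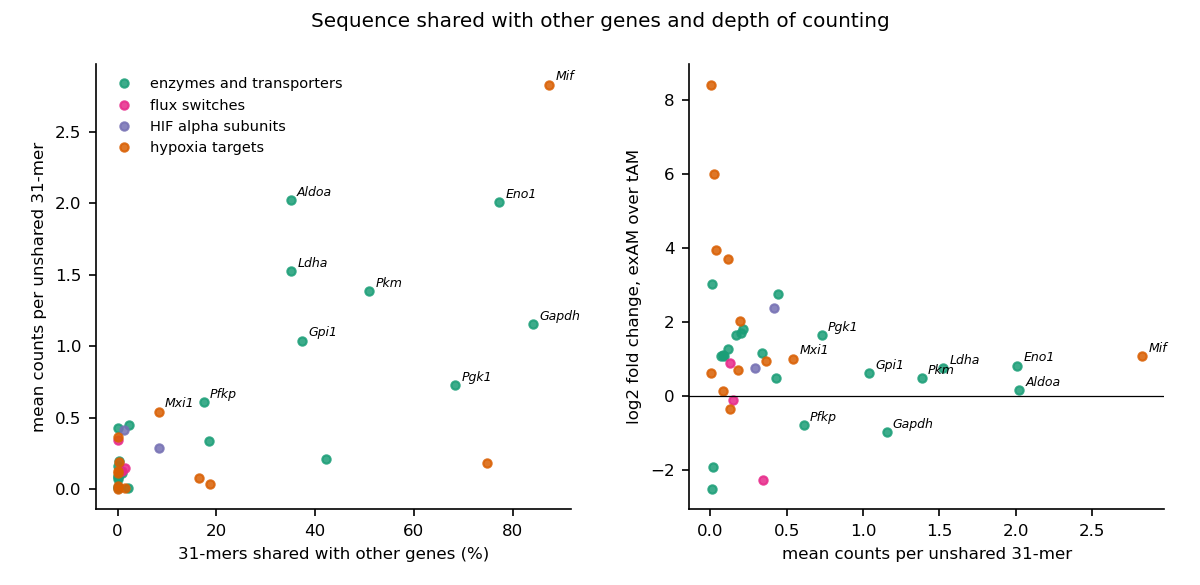
Left, the percentage of 31-base stretches that each gene's principal transcript shares with other annotated transcripts, against its mean counts per unshared stretch; right, its log2 fold change of exAM over tAM against the same counts. Genes over 0.5 are named, and Gapdh lies at 84.1% and 1.15 counts per unshared stretch, with the fold change below 0.

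At the end of the pathway, lactate dehydrogenase and both lactate transporters rose in exAM. Ldha was at 170 and 182 CPM in texAM, 329 and 320 CPM in exAM, 182 and 201 CPM in tAM, and 190 and 187 CPM in HostAM. The exAM libraries lay above all others, by a log2 fold change of 0.76 ± 0.10 SE against tAM (edgeR adjusted p = 0.000126). Slc16a1 (MCT1), which moves lactate in either direction, was at 47.2 and 36.2 CPM in texAM, 87.6 and 84.9 CPM in exAM, 45.0 and 34.4 CPM in tAM, and 20.1 and 36.6 CPM in HostAM, a 2.17-fold rise against tAM (adjusted p = 0.00736, and 0.0605 without tAM replicate 2). Slc16a3 (MCT4), the exporter of highly glycolytic cells, was at 37.8 and 33.9 CPM in texAM, 61.6 and 114 CPM in exAM, 40.4 and 42.4 CPM in tAM, and 48.8 and 35.3 CPM in HostAM. The exAM pair did not overlap with the lung libraries but differed within itself. Slc16a3 rose 2.13-fold against tAM (adjusted p = 0.00873), and without exAM replicate 2 its log2 fold change was 0.59 (adjusted p = 0.111).

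The 3 flux switches parted. Pfkfb4 and Pfkfb3 make or remove fructose-2,6-bisphosphate, the activator of phosphofructokinase, and Pdk1 blocks the entry of pyruvate into the mitochondrial citrate cycle. All 3 are also known as HIF targets. Pfkfb4 (chr9:108991778-109032228) was at 151 and 153 CPM in texAM, 38.9 and 37.5 CPM in exAM, 177 and 193 CPM in tAM, and 197 and 166 CPM in HostAM. Its fall in exAM against tAM (log2 -2.28 ± 0.13 SE, edgeR adjusted p = 7.81e-07) was the largest called fall of the 38 genes, and texAM was 3.98-fold above exAM (adjusted p = 1.95e-06). Pfkfb3 was at 63.5 and 70.5 CPM in texAM, 96.2 and 68.4 CPM in exAM, 81.1 and 95.4 CPM in tAM, and 86.5 and 109 CPM in HostAM, with overlap and no call in these comparisons (log2 -0.10 against tAM, adjusted p = 0.687). Pdk1 was at 68.9 and 68.4 CPM in texAM, 133 and 154 CPM in exAM, 86.4 and 69.2 CPM in tAM, and 52.9 and 61.4 CPM in HostAM, and rose 1.85-fold against tAM (adjusted p = 0.00123). Pfkfb4 and Pdk1 were thus called in opposite directions. Per kb, Pfkfb4 made up 76.0 and 74.3% of the summed level of Pfkfb3 and Pfkfb4 in texAM, 35.0 and 42.2% in exAM, 74.4 and 72.9% in tAM, and 75.2 and 66.9% in HostAM.

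Both HIF alpha subunits rose in exAM against tAM, and they did not do so equally. Epas1 (HIF-2 alpha, chr17:86753700-86833410) was at 184 and 143 CPM in texAM, 741 and 792 CPM in exAM, 161 and 137 CPM in tAM, and 156 and 183 CPM in HostAM. The exAM libraries stood far above the overlapping lung libraries, 5.15-fold above tAM (log2 2.36 ± 0.14 SE, edgeR adjusted p = 1.01e-06) and 4.53-fold above HostAM (adjusted p = 1.75e-06). In texAM it was 0.214 of the exAM level (adjusted p = 1.49e-06). Hif1a (HIF-1 alpha, chr12:73901375-73947530) was at 190 and 170 CPM in texAM, 196 and 220 CPM in exAM, 141 and 107 CPM in tAM, and 98.9 and 135 CPM in HostAM. Here texAM lay between exAM and the other lung groups. Hif1a rose in exAM against tAM by a log2 fold change of 0.75 ± 0.17 SE (adjusted p = 0.00549), a call that was lost without tAM replicate 2 (log2 0.56, adjusted p = 0.0532). The difference of texAM from exAM did not pass (log2 -0.21, adjusted p = 0.331). Per kb, Epas1 held 45.4 and 42.0% of the summed alpha subunit level in texAM, 76.4 and 75.5% in exAM, 49.4 and 52.2% in tAM, and 57.4 and 53.7% in HostAM.

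Epas1 is also known as a gene of endothelium, so endothelial and fibroblast markers were read beside it. The 12 endothelial and fibroblast markers summed to 250.2 to 251.4 CPM in texAM, 262 to 284 CPM in exAM, 243 CPM in both tAM libraries, and 277 to 326 CPM in HostAM. Vwf, at 208 and 219 CPM in exAM against 241 and 240 CPM in tAM, made up most of these sums in all groups. Of the 6 markers on this list that were tested, 4 were called higher and 0 lower in exAM against tAM. Over all tested genes, 21.5% were called higher and 23.2% lower. Cdh5, at 28.6 and 17.8 CPM, and Pdgfra, at 19.6 and 41.5 CPM, were detected in exAM and at 0 in tAM, while Tek, Cldn5, Col1a1, Col1a2 and Col3a1 were at 0 in exAM. Their part in the level of Epas1 was not tested.

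Of the oxygen sensors, Egln1 (PHD2), the main HIF prolyl hydroxylase, was at 140 and 129 CPM in texAM, 219 and 289 CPM in exAM, 126 and 139 CPM in tAM, and 164 and 131 CPM in HostAM. It rose 1.92-fold in exAM against tAM (log2 0.94 ± 0.15 SE, edgeR adjusted p = 0.000757). Egln3 (PHD3, chr12:54178981-54203860), a hydroxylase that HIF induces strongly, was nearly silent in tAM and at 0 in HostAM. It had 65 and 24 counts in texAM, 46 and 357 counts in exAM, 4 and 4 counts in tAM, and 0 and 0 counts in HostAM. Scaled to the libraries, this is 6.79 and 2.74 CPM in texAM, 7.89 and 55.1 CPM in exAM, and 0.464 and 0.502 CPM in tAM. The exAM libraries lay above the others, but replicate 1 lay close to texAM replicate 1.

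Egln3 rose in exAM against tAM (log2 5.99 ± 1.04 SE, edgeR adjusted p = 0.00141) and was at least 193.8-fold higher than in HostAM, taking 3 counts over both HostAM libraries as the limit that 0 counts allow. That bound rests on exAM replicate 2, without which it was 46.7-fold, and it was 94.8- and 99.0-fold with 1 HostAM library left out. It fell in texAM against exAM (log2 -2.72 ± 0.81 SE, adjusted p = 0.0229), but without exAM replicate 2 that difference was -0.75 (adjusted p = 0.571), and without texAM replicate 2 it was -2.22 (adjusted p = 0.126). TexAM had higher Egln3 than tAM in both libraries (log2 3.27 ± 1.03 SE), which did not pass the edgeR threshold (adjusted p = 0.481), and at least 28.7-fold more than HostAM (adjusted p = 0.104), or 16.2-fold without texAM replicate 1 and 14.0- and 14.7-fold without 1 HostAM library. With DESeq2, an alternative, it was called in both. The DESeq2 Wald adjusted p of Egln3 was 0.0484 against tAM, close to the threshold, and 0.000317 against HostAM.

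The secreted factors among the HIF targets were low in the lung groups. Adm, adrenomedullin (chr7:110627661-110629820), had 3 and 2 counts in texAM, 20 and 45 counts in exAM, and 0 counts in both libraries of tAM and of HostAM. The exAM level was at least 29.2-fold that of tAM (edgeR adjusted p = 0.00345) and at least 31.3-fold that of HostAM (adjusted p = 0.0033), but the call against tAM was lost without exAM replicate 2 (adjusted p = 0.0518), as was that against HostAM (adjusted p = 0.0503). Without exAM replicate 2 these bounds were 19.0- and 20.3-fold, and without 1 tAM or HostAM library they lay between 14.0- and 16.0-fold. Vegfa (chr17:46016993-46032369), the vascular growth factor, was at 7.10 and 3.76 CPM in texAM, 36.5 and 21.6 CPM in exAM, 3.02 and 1.38 CPM in tAM, and 5.18 and 4.37 CPM in HostAM. It was 13.1-fold higher in exAM than in tAM (log2 3.71 ± 0.53 SE, adjusted p = 0.000303), 6.06-fold higher than in HostAM (adjusted p = 0.0018), and lower in texAM than in exAM (log2 -2.41, adjusted p = 0.00261). Mif, a cytokine, was at 17.1 and 16.4 CPM in texAM, 41.5 and 42.3 CPM in exAM, 20.4 and 19.2 CPM in tAM, and 20.8 and 14.8 CPM in HostAM, and rose 2.11-fold against tAM (adjusted p = 0.00498). Mif has 2.83 counts per unshared 31-base stretch, the highest of the 38 genes.

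Of the intracellular targets, Ankrd37 (chr8:45996902-46005707), an ankyrin repeat protein, had 15 and 27 counts in texAM, 52 and 87 counts in exAM, 8 and 4 counts in tAM, and 7 and 17 counts in HostAM. The exAM libraries lay above all others, 15.3-fold above tAM (log2 3.93 ± 0.75 SE, edgeR adjusted p = 0.00186). P4ha1, the collagen prolyl hydroxylase subunit, was at 67.2 and 56.6 CPM in texAM, 203 and 256 CPM in exAM, 59.5 and 53.2 CPM in tAM, and 67.8 and 67.7 CPM in HostAM. It rose 4.07-fold against tAM (adjusted p = 5.41e-06), with the lung groups near each other. Mxi1, a repressor that opposes Myc, was at 115 and 108 CPM in texAM, 227 and 260 CPM in exAM, 130 and 112 CPM in tAM, and 119 and 120 CPM in HostAM, a 2.02-fold rise against tAM (adjusted p = 9.63e-05).

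The other 4 targets, P4ha2, Bnip3, Ndrg1 and Kdm3a, were not called in exAM against tAM. Bnip3, which marks mitochondria for removal, was at 6.89 and 7.41 CPM in texAM, 11.5 and 18.5 CPM in exAM, 9.52 and 8.78 CPM in tAM, and 9.15 and 8.63 CPM in HostAM. Its exAM libraries lay above all others without passing the threshold against tAM (log2 0.72 ± 0.36 SE, edgeR adjusted p = 0.133), and it was lower in texAM than in exAM (log2 -1.07, adjusted p = 0.0369). That call was lost without exAM replicate 2 (adjusted p = 0.283) or without either texAM library (adjusted p = 0.147 and 0.118), and with no filter on low counts (adjusted p = 0.0569) or library totals alone as the scale (adjusted p = 0.0834). P4ha2, a further collagen hydroxylase subunit, had 11 and 0 counts in texAM, 12 and 13 counts in exAM, 16 and 6 counts in tAM, and 10 and 0 counts in HostAM, and its difference from tAM had a wide error (log2 0.63 ± 1.44 SE, adjusted p = 0.743). Kdm3a, a histone demethylase, averaged 80.2 ± 3.92 CPM in texAM, 68.0 ± 7.14 CPM in exAM, 86.7 ± 3.62 CPM in tAM and 66.7 ± 3.08 CPM in HostAM (SD, n = 2 each). Its exAM libraries were below tAM (log2 -0.35 ± 0.14 SE, adjusted p = 0.0712), the opposite side from the other targets.

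Ndrg1, a stress-induced gene, was at 27.1 and 20.5 CPM in texAM, 22.0 and 47.6 CPM in exAM, 19.8 and 43.4 CPM in tAM, and 11.6 and 6.10 CPM in HostAM. HostAM was the lowest group, and the other 3 overlapped. Against HostAM it rose in exAM (log2 1.97 ± 0.48 SE, edgeR adjusted p = 0.00771), a call lost without exAM replicate 2 (log2 1.32, adjusted p = 0.0831). TexAM (log2 1.43, adjusted p = 0.239) and tAM (log2 1.83, adjusted p = 0.233) were also above HostAM in both libraries without passing the threshold.

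**Figure D4:**
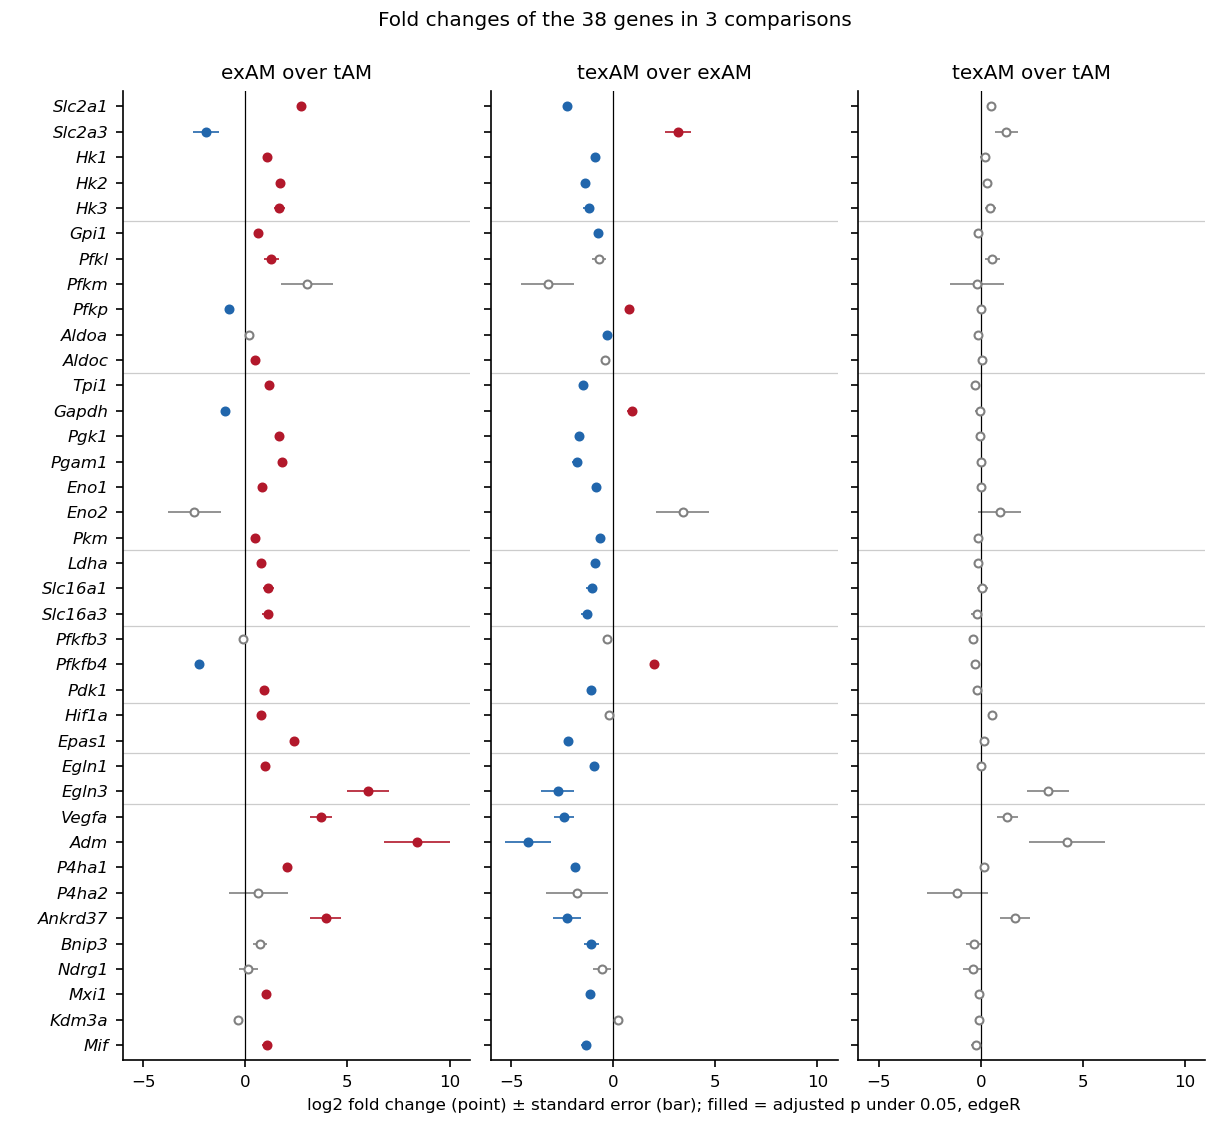
Log2 fold change (point) with its standard error (bar) of the 38 genes for exAM over tAM, texAM over exAM and texAM over tAM, with filled points at an edgeR adjusted p under 0.05. In the left panel 26 points are called higher and 4 lower, in the middle panel 4 higher and 25 lower, and in the right panel none; the point of Adm against tAM rests on 0 counts in tAM and is not a bound.

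HIF binds DNA at a short core, ACGTG or GCGTG, and the promoters of the 4 largest called rises and the 2 largest called falls in exAM against tAM, among genes with an entry, were read for it. The windows run from 250 bases before to 50 bases after the gene start in RefSeq (GRCm38.p6). They are shown 5′ to 3′ on the gene's strand, with capitals marking ACGTG or GCGTG on either strand (CACGT and CACGC are their reverse complements), so that promoters with and without the letters can be set beside the values above.
Adm (chr7:110627407-110627706, plus strand): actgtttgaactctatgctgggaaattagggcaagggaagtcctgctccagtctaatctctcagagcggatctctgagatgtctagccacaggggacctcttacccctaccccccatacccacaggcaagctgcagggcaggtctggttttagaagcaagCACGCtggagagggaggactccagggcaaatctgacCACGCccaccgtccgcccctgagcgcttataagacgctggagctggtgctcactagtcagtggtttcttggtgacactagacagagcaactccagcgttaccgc
Egln3 (chr12:54203825-54204124, minus strand): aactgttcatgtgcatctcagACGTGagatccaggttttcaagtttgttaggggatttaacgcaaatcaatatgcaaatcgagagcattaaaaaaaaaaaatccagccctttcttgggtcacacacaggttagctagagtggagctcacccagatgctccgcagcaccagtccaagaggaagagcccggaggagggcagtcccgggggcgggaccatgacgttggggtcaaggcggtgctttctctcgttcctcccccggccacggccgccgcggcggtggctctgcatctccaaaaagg
Ankrd37 (chr8:45999801-46000100, minus strand): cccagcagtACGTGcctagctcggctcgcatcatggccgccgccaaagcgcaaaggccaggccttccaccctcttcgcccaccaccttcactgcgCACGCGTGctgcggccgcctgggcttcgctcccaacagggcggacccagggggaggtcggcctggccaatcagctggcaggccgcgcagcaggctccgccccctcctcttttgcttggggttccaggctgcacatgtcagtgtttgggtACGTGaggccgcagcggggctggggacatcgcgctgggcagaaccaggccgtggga
Vegfa (chr17:46032328-46032627, minus strand): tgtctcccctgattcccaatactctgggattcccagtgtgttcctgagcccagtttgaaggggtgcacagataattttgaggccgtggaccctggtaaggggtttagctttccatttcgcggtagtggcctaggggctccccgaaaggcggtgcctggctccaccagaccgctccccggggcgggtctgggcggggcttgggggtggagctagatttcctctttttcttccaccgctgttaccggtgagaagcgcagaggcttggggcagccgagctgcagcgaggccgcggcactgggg
Pfkfb4 (chr9:108991652-108991951, plus strand): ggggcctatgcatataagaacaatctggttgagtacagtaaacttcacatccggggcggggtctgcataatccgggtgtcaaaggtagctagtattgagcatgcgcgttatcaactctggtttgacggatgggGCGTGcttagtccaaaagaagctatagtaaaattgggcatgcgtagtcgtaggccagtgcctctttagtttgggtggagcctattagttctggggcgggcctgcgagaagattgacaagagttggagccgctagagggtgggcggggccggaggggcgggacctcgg
Gapdh (chr6:125165724-125166023, minus strand): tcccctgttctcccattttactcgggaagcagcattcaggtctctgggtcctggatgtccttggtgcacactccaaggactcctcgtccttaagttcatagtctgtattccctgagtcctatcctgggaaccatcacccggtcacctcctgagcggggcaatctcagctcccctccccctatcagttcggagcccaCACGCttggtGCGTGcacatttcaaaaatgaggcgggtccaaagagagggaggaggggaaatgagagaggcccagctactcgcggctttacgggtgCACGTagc

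Adm holds 2 GCGTG, both on the opposite strand, Egln3 holds 1 ACGTG, and Ankrd37 holds 2 of each. Vegfa holds neither in this window. Both genes that fell hold matches as well, 1 GCGTG in Pfkfb4 and, in Gapdh, 1 ACGTG and 2 GCGTG. These 6 windows were picked by fold change and are too few to show whether a match goes with the direction. Of the 35 genes of the list with an entry (Epas1, Slc2a3 and Ndrg1 had none), taking the first window listed, 20 (57.1%) held ACGTG, 18 (51.4%) held GCGTG and 27 (77.1%) held either. Among the 10260 tested genes with an entry the shares were 25.6%, 50.6% and 62.2%, and among all 32851 windows they were 19.6%, 32.4% and 43.8%. By block, 11 of 20 enzymes and transporters held ACGTG and 14 either motif, and 7 of 11 HIF targets held ACGTG and 9 either. Ldha held 5 ACGTG and 2 GCGTG, and Slc16a1 and Pfkm held 3 ACGTG each. ACGTG is also part of the E-box CACGTG, which other factors bind and which counts as ACGTG on both strands. That E-box was found in 5 of the 35 windows (14.3%), Ldha, Slc16a1, Pfkm, Hif1a and Bnip3, against 10.2% of the first windows of tested genes and 7.15% of all windows. A match is a stretch of letters and not a measured binding site, and its absence here says nothing of other stretches of the gene.

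Most of these genes were lower in transplanted expanded cells than in the cultured ones. In texAM against exAM, 25 of the 38 genes fell and 4 rose, where 43.7% of all tested genes were called, 23.2% higher and 20.5% lower. The median log2 fold change was -1.06 over the 38 genes and 0.11 over all tested genes. Of the 21 enzymes and transporters, 14 fell and 3 rose (median -0.88), and of the 12 HIF targets 9 fell and 0 rose (median -1.55). Among the targets, the calls of Egln3, Adm, Ankrd37 and Bnip3 were lost under an alternative setting of the fit. The same held for Hk1, Aldoa, Gapdh and Slc16a1 among the enzymes and transporters. The 4 genes that rose were Slc2a3, Pfkp, Gapdh and Pfkfb4. Of these, Gapdh was at 31.5 and 39.5 CPM in texAM against 17.2 and 20.2 CPM in exAM (log2 0.92 ± 0.22 SE, edgeR adjusted p = 0.00734), and was not called without texAM replicate 2 (adjusted p = 0.0695) or exAM replicate 1 (adjusted p = 0.0678). This comparison shares the exAM libraries with those above.

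Between the lung groups, edgeR called none of the 38 genes. In texAM against tAM, 0 of 38 genes passed, where 0.00688% of all tested genes did. At an unadjusted p under 0.05 there were 7, Slc2a1, Hk2, Hif1a, Egln3, Vegfa and Ankrd37 higher and Pfkfb4 lower in texAM (18.4%, against 7.84% of all tested genes), and DESeq2 called 1, Egln3 (0.547% of all genes it gave an adjusted p). Slc2a1 was at 115 and 104 CPM in texAM against 61.9 and 93.5 CPM in tAM (log2 0.49 ± 0.16 SE, edgeR adjusted p = 0.512). For Hif1a the log2 difference was 0.53 ± 0.17 SE (adjusted p = 0.478), and for Vegfa 1.29 ± 0.52 SE (adjusted p = 0.604). The median over the 38 genes was 0.01 and that over all tested genes 0.00.

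In texAM against HostAM, 0 of 38 passed (0.33% of all tested genes). There were 7 at an unadjusted p under 0.05 (13.2% of all tested genes), with Slc2a3, Aldoc, Hif1a, Egln3, Adm and Ndrg1 higher and Pfkfb3 lower in texAM, and DESeq2 called 3, Slc2a3, Hif1a and Egln3 (2.69% of its genes). Slc2a3 was at 23.4 and 13.6 CPM in texAM against 2.20 and 5.99 CPM in HostAM (log2 2.17 ± 0.59 SE, edgeR adjusted p = 0.152). For Hif1a the log2 difference was 0.62 ± 0.17 SE (adjusted p = 0.156). In tAM against HostAM, 0 of 38 passed (0.0413%), 4 had an unadjusted p under 0.05 (Aldoc, Pdk1, Ndrg1 and Kdm3a, all higher in tAM, against 10% of all tested genes) and DESeq2 called 1, Ndrg1 (1.36% of its genes). With 2 libraries a group, a missed threshold does not show that the groups were alike.

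T cell markers also differed between the lung groups. Cd4 was at 80.2 and 62.6 CPM in texAM, 14.7 and 32.7 CPM in tAM, and 2.09 and 9.09 CPM in HostAM. Cd3e was at 82.1 and 60.8 CPM in texAM, 26.7 and 56.9 CPM in tAM, and 12.9 and 28.2 CPM in HostAM. Of the 10 lymphocyte markers tested, 8 were higher in both texAM libraries than in both tAM libraries, and 6 than in both HostAM libraries. Among all 14537 tested genes, 3183 and 3164 were higher in this way. Cd4 was the 1 marker called in texAM against HostAM (log2 3.68, edgeR adjusted p = 0.0307), where 0.33% of all tested genes were called. The part of these cells in the differences of Slc2a3, Hif1a and the other genes between lung groups was not tested.

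Most HIF targets differed the same way between the pair of exAM libraries. Replicate 2 had the higher level for 10 of the 12 targets (83.3%) and for 7 of the 21 enzymes and transporters (33.3%), against 49.5% of all tested genes. The median log2 ratio of replicate 2 over replicate 1 was 0.36 for the targets and -0.05 for the enzymes. Egln3, at 55.1 CPM in replicate 2 and 7.89 CPM in replicate 1, and Ndrg1, at 47.6 and 22.0 CPM, differed most, and Vegfa lay the other way, at 21.6 and 36.5 CPM. In the lung groups replicate 2 had the higher level for 2 of 12 targets in texAM, 4 of 11 in tAM and 3 of 10 in HostAM. Over all tested genes these shares were 48.7%, 49.7% and 51%. Most targets thus differed the same way between the texAM libraries too, there with replicate 1 the higher. Each exAM library is a pool, and no label sets these pools apart.

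**Figure D5:**
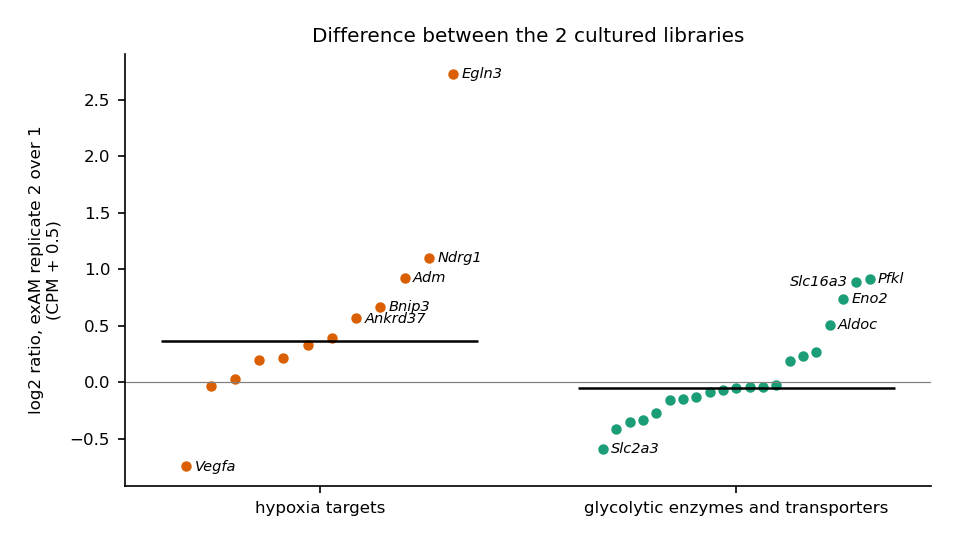
Log2 ratio of exAM replicate 2 over replicate 1, computed as CPM + 0.5, for the 12 HIF targets and the 21 glycolytic enzymes and transporters, 1 point per gene with the median as a bar. The median is 0.36 for the targets and -0.05 for the enzymes, and Egln3 is the highest point.

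Other genes of both pathways, taken from lists of 40 names each, were less one-sided for glycolysis. Of 28 further genes of glycolysis and pyruvate use that were tested, 6 rose and 5 fell in exAM against tAM (39.3% called, median log2 fold change -0.02). That share lay near the 44.7% called over all tested genes, where 21.5% were higher and 23.2% lower. Ldhb, the lactate dehydrogenase subunit of oxidative tissues, was at 32.1 and 33.8 CPM in exAM against 1.97 and 1.00 CPM in tAM (log2 4.45, edgeR adjusted p = 0.00226), and Pdha1, a subunit of pyruvate dehydrogenase, rose by a log2 fold change of 1.14 (adjusted p = 0.000543). Pdk4, which inhibits pyruvate dehydrogenase when fat is burned, had 2 counts over both exAM libraries against 770 over both tAM libraries, a ratio of 0.0035 with a 95% counting interval of 0.000423 to 0.0127. Pdk1, of the same kinase family, rose. Eno4, an enolase known from sperm, fell (log2 -2.16, adjusted p = 0.0323).

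Of 35 further hypoxia pathway genes that were tested, 16 rose and 5 fell in exAM against tAM (60% called), with a median log2 fold change of 0.56. Over all tested genes, 44.7% were called, 21.5% higher and 23.2% lower. Arnt2, a HIF beta subunit known from neurons, was at 254 and 159 CPM in exAM against 3.25 and 4.76 CPM in tAM (log2 5.69 ± 0.56 SE, edgeR adjusted p = 2.76e-05), and Lox, the collagen cross-linker, was at least 35.5-fold higher (adjusted p = 0.00348). The HIF target Cxcr4 fell (log2 -1.23, adjusted p = 4.9e-05). Known HIF targets were thus called in both directions in exAM. In texAM against HostAM, the nuclear receptor gene Rora, at 273 and 233 CPM against 130 and 140 CPM, was called higher (log2 0.90, adjusted p = 0.0179).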

How the data were processed

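Bulk RNA was sequenced from 8 pools of mouse alveolar macrophages, 2 in each of 4 groups. Per the labels' protocols, 2 ng of total RNA went into cDNA synthesis with amplification (NuGEN Ovation RNA-Seq V2). Per the submitters' processing notes, Bowtie, HTSeq 0.6.1, R 3.3 and the build mm10 (GRCm38) were used. The deposited values are raw counts of reads per gene, whole numbers that the authors did not normalize. The strand setting and the treatment of reads that match several places are not given in the sources used here.

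Counts were analysed with edgeR 4.0.16 in R 4.3.3. Genes were kept by filterByExpr (minimum of 10 counts), which left 14537, and libraries were scaled by TMM. A robust quasi-likelihood model with 1 coefficient per group was fitted to all 8 libraries, with 4 residual degrees of freedom and a biological coefficient of variation of 0.22. Each pair of groups was tested, p-values were adjusted by Benjamini-Hochberg over all tested genes, and a gene was called at an adjusted p under 0.05. Standard errors are the log2 fold change divided by the root of F. Folds against 0 counts use 3 counts over the group. Counting intervals and such limits cover counting error only. Positions, transcript lengths and shared stretches of 31 bases come from GENCODE M21 (GRCm38), and promoters from RefSeq (GRCm38.p6). The script was tested on simulated data.

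The genes, the further lists and the markers were chosen with earlier results of these data known. All 38 genes are reported. From each further list the 2 largest called changes per direction in exAM against tAM were named, except 1 that is not reported here, and from each marker list the gene with the highest level in any group, beside Siglecf, Itgax, Marco, Pparg and Ptprc. Rora and the other markers were named after their values were seen. Protein sequences were not used here. The fit was repeated with every gene that had a count, with 50 counts in place of 10, with size factors or the Wald test of DESeq2 1.42.0, with library totals alone, with a replicate block, with only the 4 libraries compared, without genes over 0.5 counts per base, with a fold of at least 2 as a further condition, and without each library in turn.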

Additional observations from a re-analysis of the deposited data

How the results depend on the processing

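No call of a single gene changed direction under an alternative. For exAM against tAM, 30 genes were called in the analysis above and 25 to 29 without 1 library at a time. For exAM against HostAM these were 30 and 25 to 30, and for texAM against exAM 29 and 23 to 27. With a fold of at least 2 required as well, the counts were 20, 21 and 20. Leaving that fold condition aside, 22 of 30, 23 of 30 and 21 of 29 calls were kept under every alternative that gave the gene a value, and 15, 16 and 15 of these also met it. Genes over 0.5 counts per base have no value where such genes were left out. Between lung groups, 0 genes were called without any 1 library. With no filter on low counts there were 3 in texAM against tAM (1.06% of all genes), 5 in texAM against HostAM (3.08%) and 2 in tAM against HostAM (1.89%), and with the DESeq2 Wald test 1, 3 and 1. The cause of these differences was not tested. Of 2691 values of single genes under alternatives, 2587 kept their side of the threshold, 49 passed it newly and 55 no longer passed it, 15 of these 55 without exAM replicate 2. Library totals alone in place of TMM shifted the median log2 fold change of all genes by -0.20 in exAM against tAM, -0.18 in exAM against HostAM and 0.22 in texAM against exAM.

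Replicate numbers are shared between the groups, but same-numbered libraries did not deviate together, with correlations of their deviations from -0.06 to 0.01. With the replicate number as a block, 29, 29 and 28 genes were called in the comparisons with exAM and 0 in each pair of lung groups. The single calls lost under the replicate block were Aldoc (exAM against tAM, adjusted p = 0.0544 in edgeR), Eno2 (exAM against HostAM, adjusted p = 0.0503), and Egln3 and Bnip3 (texAM against exAM, adjusted p = 0.0717 and 0.0531).

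Differences of Adm, Eno2, Pfkm, P4ha2 and Ankrd37 are limited by their low counts. Leaving out 1 of the 2 libraries of a group assumes that the one left varies like the other groups.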
